A study of Mus musculus with 12 samples.

Results

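Mest, Sfrp5, Bmp3, Npr3 and Cav1 are genes linked to the growth of white fat, and their expression was followed in 4 organs of mice fed normal chow (NCD) or a diet high in fat (HFD). These 5 genes were chosen by name, with earlier results of these data known. They are 5 of the 22276 gene symbols with expression values. RNA was sequenced from WAT (white adipose tissue), BAT (brown adipose tissue), liver and quadriceps muscle of male C57BL/6J mice. The 3 groups were NCD with vehicle (NCD-veh), HFD with vehicle (HFD-veh) and HFD with narciclasine (HFD-ncls), a plant alkaloid. Each organ and group gave 1 library, 12 in all. All mice were 17 weeks old at the end, the diets began at 8 weeks and weekly gavage began at 10 weeks. The vehicle was hydroxypropyl cyclodextrin and the dose of narciclasine was 1 mg/kg. Below, 3 values given for an organ stand in the order NCD-veh, HFD-veh, HFD-ncls. The fat depot of the WAT libraries and the number of mice behind a library were not given in the sources used here.

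Fat tissue takes up surplus energy by enlarging its adipocytes and by forming more of them. Mest is an imprinted gene, transcribed from the paternal copy, and encodes a protein of the alpha/beta hydrolase fold that is widely used as a marker of adipocyte enlargement. Sfrp5 is a secreted frizzled-related protein that binds Wnt ligands, and Bmp3 is a secreted member of the bone morphogenetic protein (BMP) family that opposes other BMPs in bone. Npr3 is the receptor that clears natriuretic peptides, hormones that signal through cyclic GMP-producing receptors such as Npr1. Cav1 is the main structural protein of caveolae, the membrane pits that are dense on adipocytes.

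Expression was measured in FPKM, which divides the fragments of a gene by its exon length and by the size of the library, so that levels can be compared between genes. With 1 library per organ and group there were no replicates, so no error or p-value is given and every comparison describes these libraries only. Differences between libraries are given on log2(FPKM + 0.1), for genes with at least 1 FPKM in at least 1 of both libraries, and a gene was counted as higher or lower when it passed 2-fold on that scale. The libraries held about 18600000 to 26200000 fragments, estimated from the smallest steps in FPKM. The organ labels were checked against marker genes. The brown fat gene Ucp1 had 740 to 770 FPKM in BAT and 2.38 to 3.92 FPKM in WAT, and a list of 16 adipocyte genes summed to between 24453 and 34053 FPKM in WAT. A list of 10 liver genes summed to 8.06, 58.8 and 210 FPKM in WAT and to 1.67, 513 and 0.790 FPKM in muscle. A list of 10 skeletal muscle genes summed to 2118, 886 and 131 FPKM in BAT and to 2.18, 68.2 and 3.14 FPKM in liver. Markers of another organ thus differed between groups in all 4 organs, and their values stand beside the results they move with.

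In the mm9 build the authors used, Mest lies on the plus strand at chr6:30673547-30698457 and Cav1 on the plus strand at chr6:17256335-17291452. Sfrp5 lies on the minus strand at chr19:42272461-42276742, Npr3 on the minus strand at chr15:11769651-11835429 and Bmp3 on the plus strand at chr5:99283458-99309979. All are protein-coding genes. Mest and Sfrp5 were the 2 members that were over 2-fold higher in WAT on HFD, so the 250 bases before their start sites are shown, 5′ to 3′ on the strand of the gene, from RefSeq for GRCm38.p6. The windows are chr6:30737800-30738049 for Mest, 1 of its 3 listed start sites, and chr19:42202253-42202502 for Sfrp5. Capitals mark the GC box GGGCGG, searched on both strands.
Mest: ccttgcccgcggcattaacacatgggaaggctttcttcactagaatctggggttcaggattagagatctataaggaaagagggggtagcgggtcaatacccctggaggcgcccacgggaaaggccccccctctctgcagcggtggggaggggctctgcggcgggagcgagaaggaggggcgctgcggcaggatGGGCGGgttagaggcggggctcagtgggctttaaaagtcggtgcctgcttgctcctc
Sfrp5: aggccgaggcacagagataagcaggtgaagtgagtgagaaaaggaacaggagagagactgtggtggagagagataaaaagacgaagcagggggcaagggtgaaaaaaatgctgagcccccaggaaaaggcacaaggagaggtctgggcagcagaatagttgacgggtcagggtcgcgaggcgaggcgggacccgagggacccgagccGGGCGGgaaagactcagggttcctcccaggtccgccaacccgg
Each window held 1 GC box, a motif found in 32.7% of the 32851 RefSeq promoter windows of the same length. The Mest window had 14 CpG dinucleotides and the Sfrp5 window 13, against a median of 6 over all windows. Neither of these windows held a CCAAT box (CCAAT, in 33.8% of all windows), a TATA box (TATAAA, 12.4%), the nuclear receptor half-site AGGTCA (14%) or the C/EBP-type motif TTGCNNAA (9.56%), each searched on both strands. The window before another listed start site of Mest, chr6:30733256-30733505, had 7 CpG dinucleotides, 1 GC box and 1 match to the C/EBP-type motif. These matches describe the letters only.

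All 5 genes were highest in white fat, and for each of them the 3 WAT libraries stood above the other 9. This alone is not particular to them, since 45.9% of the 13648 genes with at least 1 FPKM in some library did the same. The margin was large for 4 of them. The lowest WAT level was 50.9 times the highest level in any other library for Mest, 43.7 times for Bmp3, 42.9 times for Sfrp5 and 29.3 times for Npr3, but 6.13 times for Cav1. Ranked by this ratio after adding 0.1 FPKM, Mest was number 5, Sfrp5 9, Bmp3 21, Npr3 32 and Cav1 448 of the 13648 genes. WAT held 99.5% of the FPKM of Mest summed over the 12 libraries and 86.7% of that of Cav1.

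**Figure D1:**
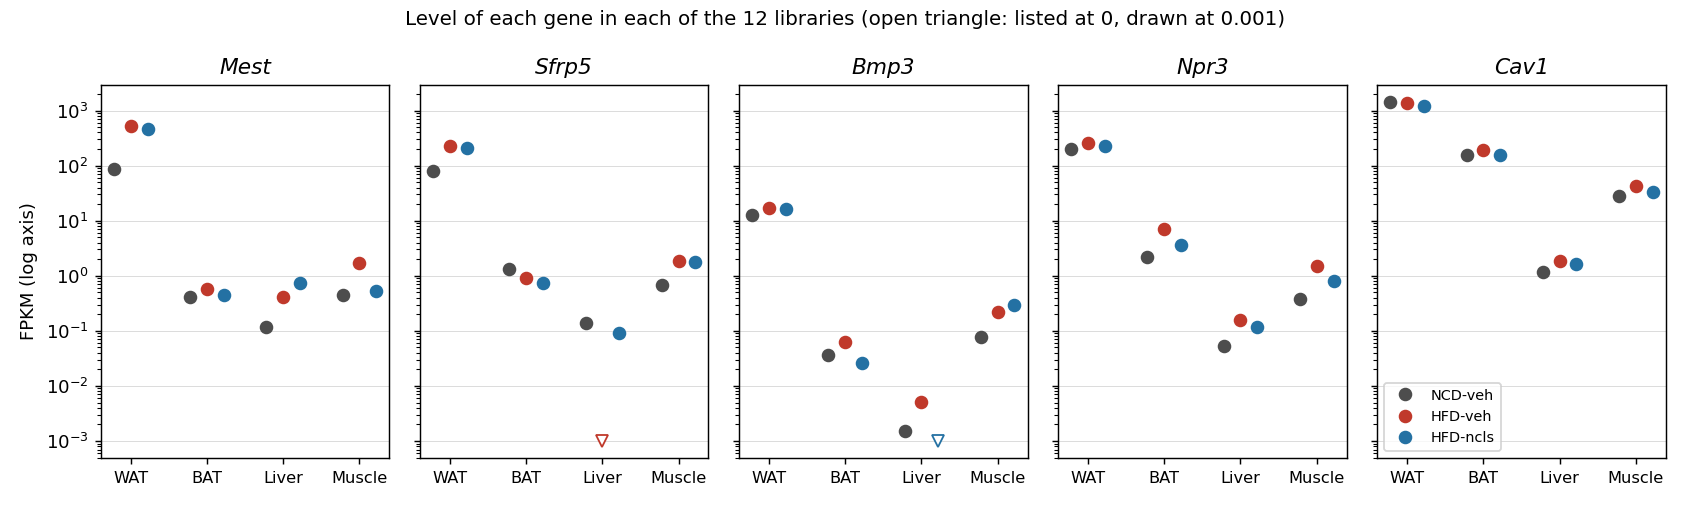
FPKM of the 5 genes in each of the 12 libraries, on a log axis, with 1 point per library coloured by group and an open triangle for a gene listed at 0. All points of WAT lie above all points of BAT, liver and muscle for each gene, and the gap is smallest for Cav1, which has 153 to 194 FPKM in BAT.

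Levels within WAT spanned a wide range. Cav1 was the most abundant, at 1434, 1346 and 1187 FPKM. Bmp3 was the least abundant, at 12.8, 16.7 and 16.4 FPKM. Npr3 (204, 259 and 224 FPKM), Mest (87.0, 526 and 453 FPKM) and Sfrp5 (80.6, 230 and 208 FPKM) lay between them, with ranges over the 3 libraries that overlapped one another and not those of Cav1 or Bmp3. Mest was below Npr3 in NCD-veh WAT and above it in both HFD libraries.

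White and brown fat differed sharply in the 5 genes. Among NCD-veh mice WAT had 355 times the BAT level of Bmp3, 209 times that of Mest, 92.0 times that of Npr3, 60.0 times that of Sfrp5 and 9.26 times that of Cav1. The BAT libraries spread less FPKM over the listed genes (254403 to 269444 in sum) than the WAT libraries (350051 to 351332). With each library scaled to the same sum, an alternative added after the data were seen, the ratios were 272, 161, 70.6, 46.0 and 7.10. In BAT, Bmp3 (0.0362, 0.0629 and 0.0266 FPKM) corresponded to about 2.05 to 4.86 fragments per library, so no difference between groups was detectable at this depth. Mest in BAT had 0.416, 0.576 and 0.455 FPKM, under the minimum of 1 FPKM.

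On HFD, WAT carried 6.04 times as much Mest RNA and 2.85 times as much Sfrp5 RNA as on NCD. Mest went from 87.0 FPKM in NCD-veh to 526 FPKM in HFD-veh, a log2 difference of 2.59 that placed it 95th from the top of the 12208 genes measured. Sfrp5 went from 80.6 to 230 FPKM, a log2 difference of 1.51, the 296th from the top. The other 3 genes stayed within 2-fold, with log2 differences of 0.38 for Bmp3, 0.34 for Npr3 and -0.09 for Cav1 (0.17 relative to the median of a list of adipocyte genes). Thus 2 of 5 genes were over 2-fold higher and 0 of 5 over 2-fold lower, where 5.24% of all genes measured were higher and 3.87% lower. Because the 5 genes were chosen with earlier results of these data known, this contrast and those below are descriptions only. The median of the 5 was 0.38 and that of all genes 0.03. WAT is a mixture of cells, and fewer cells of a type cannot be told apart from less RNA per cell in these bulk libraries.

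The 3′ end of Mest overlaps that of Copg2, which lies on the opposite strand, by 904 bases, and whether the reads kept their strand was not given in the sources used here. Reads from the overlap could then fall to either gene. Copg2, a subunit of the coat of transport vesicles, had 18.4, 37.8 and 32.1 FPKM in the 3 WAT libraries, far below Mest in both HFD libraries.

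With narciclasine all 5 genes stayed within 2-fold of HFD-veh in WAT. Mest had 453 FPKM in HFD-ncls and 526 FPKM in HFD-veh, a log2 difference of -0.22. The differences were -0.15 for Sfrp5, -0.02 for Bmp3, -0.21 for Npr3 and -0.18 for Cav1. All 5 were below 0 on this scale and 0 of 5 passed 2-fold in either direction, against 1.49% of 12152 genes higher and 0.214% lower. Their median was -0.18, that of all genes 0.04 and that of the adipocyte list -0.10. Relative to the adipocyte list the differences were -0.12 for Mest, -0.05 for Sfrp5, 0.0761 for Bmp3, -0.11 for Npr3 and -0.08 for Cav1. HFD-ncls WAT still had 5.20 times the Mest level and 2.57 times the Sfrp5 level of NCD-veh WAT on the same scale, so 2 of 5 genes were over 2-fold above NCD-veh, as were 7.11% of 12357 genes. Both comparisons with an HFD library share a library with the diet comparison, so their values are not independent of one another.

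**Figure D2:**
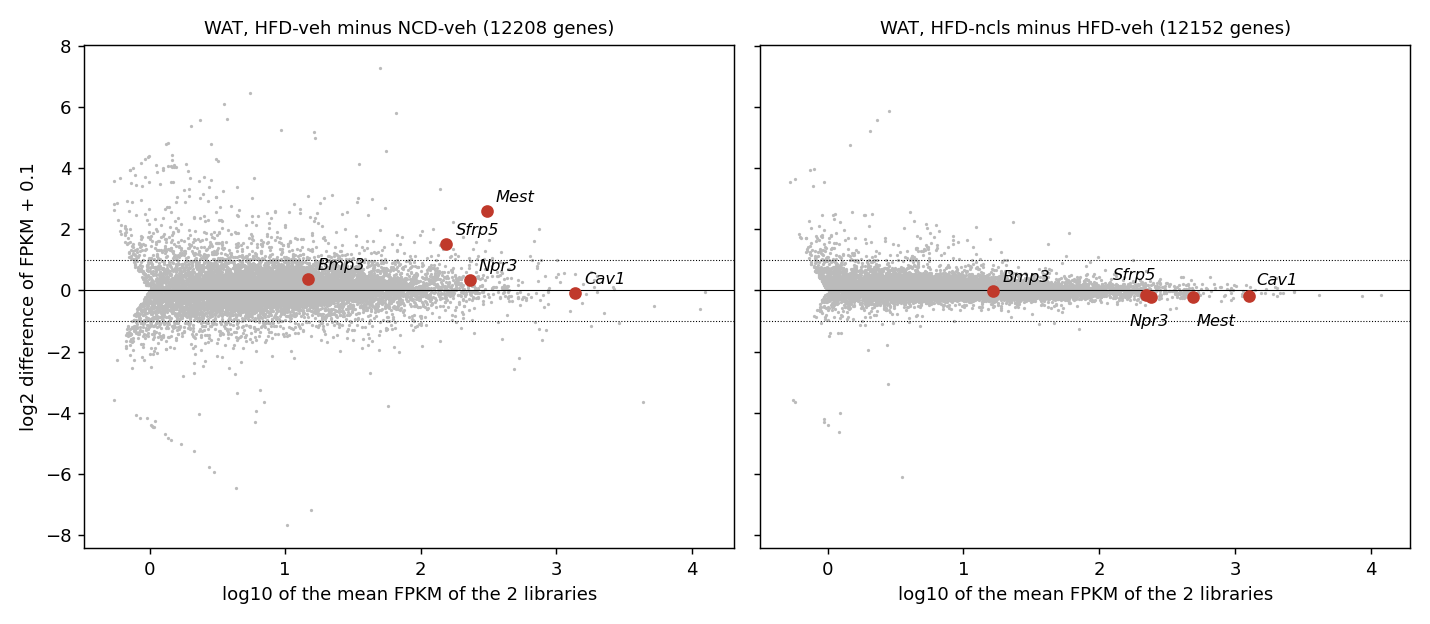
Log2 difference of FPKM + 0.1 in WAT (vertical axis) against the log10 of the mean FPKM of both libraries (horizontal axis), for HFD-veh minus NCD-veh on the left and HFD-ncls minus HFD-veh on the right. Grey points are all genes measured, red points the 5 genes, and dotted lines mark 2-fold. Mest and Sfrp5 lie above the upper line on the left, and all 5 lie between the lines and below 0 on the right.

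Markers of other cell types moved in the same WAT libraries. The 10 macrophage genes summed to 260, 812 and 951 FPKM, and 6 of 10 measured were higher on HFD. All 9 measured proliferation genes were higher on HFD, with a median log2 difference of 1.76. Of 10 mesothelial genes, which mark the lining of visceral organs, 8 were lower, and their sum was 279, 110 and 125 FPKM. Of 10 genes of adipose progenitors, 9 were measured, with a median of -0.65. Of these, 2 were lower, Pi16 by 1.61 and Dpp4 by 1.29 on the log2 scale. The sum of the whole progenitor list stayed at 488 to 496 FPKM. The adipocyte list itself had a median of -0.26, with Lep higher (300.2 to 1199 FPKM) and Cfd lower (8163 to 653 FPKM). In the liver list all 8 genes measured were higher in HFD-veh, with a median of 3.46, while the liver libraries held at most 0.735 FPKM of Mest and 0.138 FPKM of Sfrp5. The part of these cell types in the Mest and Sfrp5 differences was not tested. Relative to the median of the adipocyte list the differences were 2.85 for Mest and 1.77 for Sfrp5.

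**Figure D3:**
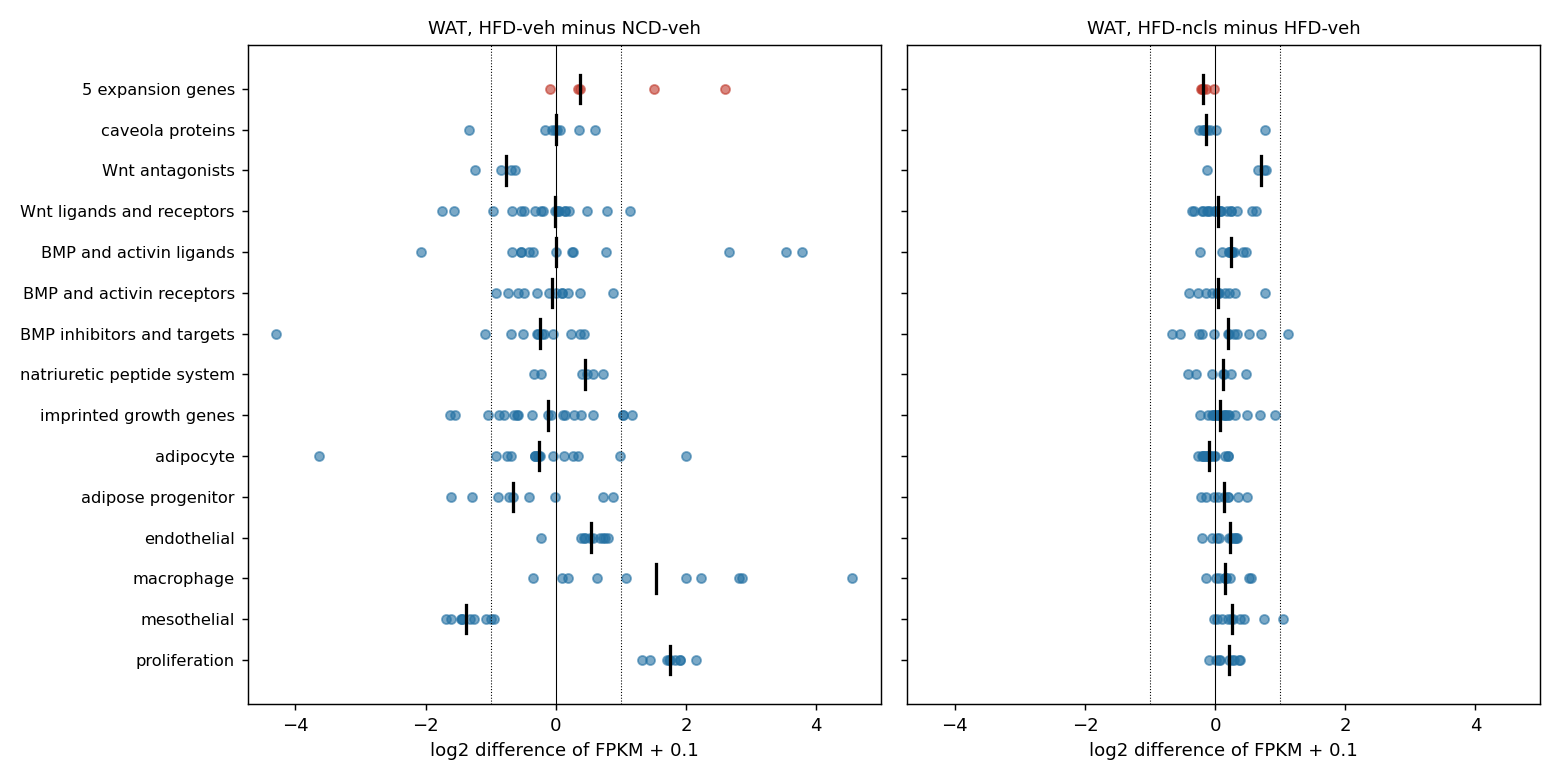
Log2 differences of FPKM + 0.1 in WAT for the genes measured in 14 of the lists and the 5 genes, HFD-veh minus NCD-veh on the left and HFD-ncls minus HFD-veh on the right, with 1 point per gene, a black bar at each list's median and dotted lines at 2-fold. The lists of liver, skeletal muscle, brown adipocyte, epididymis and blood genes are not drawn. Among the lists drawn, the medians of the proliferation and macrophage lists (1.76 and 1.54) lie highest and that of the mesothelial list (-1.38) lowest on the left.

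Sfrp5 was higher in WAT on HFD while the other secreted Wnt antagonist past 2-fold was lower. Of 10 other listed antagonists, 4 had at least 1 FPKM, their median was -0.77 on HFD, and 1 passed 2-fold, Dkk3, which was lower by 1.23 on the log2 scale (2.96 to 1.20 FPKM). The relatives Sfrp1, Sfrp2 and Sfrp4, named after their values were seen, differed by -0.62, -0.85 and -0.69 between HFD-veh and NCD-veh. Sfrp2 had 24.1, 13.4 and 21.2 FPKM, and Sfrp4 had 9.07, 5.59 and 9.65 FPKM. Wif1, under the minimum of 1 FPKM, had 0, 0.575 and 0.389 FPKM. With narciclasine Sfrp1, Sfrp2 and Sfrp4 differed from HFD-veh by 0.75, 0.66 and 0.78, while Sfrp5 differed by -0.15. The NCD-veh WAT library thus held 80.6 FPKM of Sfrp5 and 41.0 FPKM of the 10 other antagonists together, and the HFD-veh library 230 and 24.0 FPKM. Among 19 Wnt ligands, receptors and targets measured, Nkd1, an intracellular inhibitor induced by the pathway, was higher (4.74 to 10.6 FPKM), and the ligands Wnt10b (1.43 to 0.356 FPKM) and Wnt2b (12.1 to 4.02 FPKM) were lower on HFD. The median of these 19 was -0.01.

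Bmp3 itself differed little, and the lists around it were mixed. Among 13 other BMP and activin ligands measured in WAT, 3 were higher on HFD and 1 was lower. Those higher were myostatin (Mstn, 0.0177 to 1.53 FPKM), Gdf3 (0.0718 to 1.89 FPKM) and the stress-induced Gdf15 (0.199 to 1.79 FPKM), each from a low level. The skeletal muscle list, whose tissue makes myostatin, summed to 36.9, 63.6 and 49.3 FPKM in WAT. In muscle itself that list summed to 101448, 100542 and 97736 FPKM, and Mstn had 24.1, 27.1 and 22.2 FPKM. The part of muscle RNA in the Mstn values of WAT was not tested. Bmp7 was lower (1.68 to 0.325 FPKM). None of the 12 receptors measured passed 2-fold. Of 12 inhibitors and targets measured, 2 were lower, among them the BMP-binding protein chordin (Chrd, 4.03 to 1.85 FPKM).

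Mest shared its direction with some imprinted genes and not with others. Of 26 imprinted growth genes 19 were measured in WAT, 3 were higher on HFD, 3 were lower, and the median was -0.11. The 3 higher were Klf14 (2.41 to 5.52 FPKM), Copg2 and Peg10 (1.88 to 3.96 FPKM). Copg2 overlaps Mest, so reads of Mest could count towards it, and Klf14 lies 207.6 kb from Mest. The 3 lower were Nnat (1180 to 384 FPKM), Plagl1 (43.0 to 14.6 FPKM) and decorin (Dcn, 949 to 461 FPKM). With narciclasine 0 of 19 differed from HFD-veh by over 2-fold.

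In BAT the diet difference lay in Npr3. It had 2.22, 6.96 and 3.67 FPKM, and WAT of HFD-veh mice held 37.2 times the highest of these levels. HFD-veh was above NCD-veh by 1.61 on the log2 scale, number 68 from the top of 10444 genes. HFD-ncls was below HFD-veh by 0.91 and above NCD-veh by 0.70, both within 2-fold. Sfrp5 had 1.34, 0.928 and 0.735 FPKM, a log2 difference of -0.49 on HFD where WAT had 1.51. Cav1 had 155, 194 and 153 FPKM, with log2 differences of 0.32 on HFD and -0.34 with narciclasine. Of the 3 genes measured, 1 was over 2-fold higher and 0 were lower on HFD, against 2.28% of all genes higher and 2.01% lower. With narciclasine 2 genes were measured and 0 passed 2-fold, against 0.261% of 10331 genes higher and 1.7% lower.

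Apart from Npr3, no measured gene of the natriuretic peptide list passed 2-fold in BAT on HFD. Of its 14 genes 6 were measured in BAT, 0 passed 2-fold, and the median was -0.14 on HFD. The signalling receptors Npr1 and Npr2, named after their values were seen, had 11.5 and 6.08 FPKM in NCD-veh BAT and 14.4 and 8.60 FPKM in HFD-veh BAT. Npr3 was therefore below Npr1 in all 3 BAT libraries and above it in all 3 WAT libraries, where Npr1 had 15.99 to 19.05 FPKM. The peptides Nppa, Nppb and Nppc stood at or below 0.0792 FPKM in all 6 fat libraries, which limits what their values can show. In WAT 6 genes of the list were measured, 0 passed 2-fold, and the median was 0.45.

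Other lists moved in the same BAT libraries as Npr3. Of 8 macrophage genes measured, 3 were higher on HFD and 4 were lower with narciclasine, with sums of 17.7, 42.9 and 14.8 FPKM. Of 16 adipocyte genes, 1 was higher on HFD and 2 were lower, with a median of -0.39. Lep, the fat hormone leptin, was the higher one (0.597, 3.68 and 2.13 FPKM), and Retn (65.5, 17.4 and 18.0 FPKM) and Cfd (821, 404 and 853 FPKM) were lower. Of 9 BMP inhibitors and targets measured, 5 were higher on HFD, among them Fstl3 (0.341 to 1.56 FPKM), the inhibitory Smad7 (0.629 to 1.65 FPKM) and Smad6 (1.79 to 4.01 FPKM), and Id1 (33.7 to 75.8 FPKM), while follistatin (Fst) was lower (7.67 to 2.78 FPKM). The muscle list was lower on HFD in 7 of 10 genes and lower with narciclasine in 10 of 10. Npr3 in muscle had at most 1.52 FPKM, below its level in each BAT library. The part of macrophages or white adipocytes in the Npr3 difference was not tested.

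Like Cav1, most caveola genes stayed within 2-fold in WAT. Of 10 listed proteins other than Cav1, 8 were measured in WAT, 0 were over 2-fold higher on HFD, and 1 was lower, Pacsin3 (8.58 to 3.36 FPKM). Their median was 0.01 on HFD and -0.14 with narciclasine. Ptrf (cavin-1), the coat protein that caveolae need, had 458, 584 and 525 FPKM in WAT. In BAT the 8 measured had a median of 0.39 on HFD and -0.47 with narciclasine, in the directions of Cav1 there, and 0 and 1 of them passed 2-fold. Murc, Pacsin2 and Pacsin3 were below 0 on HFD (-0.39, -0.11 and -0.50). The gene past 2-fold was Murc (1.41, 1.05 and 0.299 FPKM), which had 44.1 to 47.0 FPKM in muscle. The skeletal muscle list summed to 2118, 886 and 131 FPKM in these BAT libraries, and the part of muscle RNA in the Murc values was not tested. Ptrf in BAT had 64.9, 116 and 82.6 FPKM and Ehd2, a membrane ATPase of caveolae, 43.7, 67.8 and 47.0 FPKM. The 10 endothelial genes had a median on HFD of 0.54 in WAT and 0.31 in BAT, and 0 passed 2-fold in either organ. The part of endothelial cells in the Cav1 values was not tested.

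In muscle, 3 of the 4 genes measured were over 2-fold higher on HFD, against 3.14% of 9587 genes, all at low levels. These 3, Mest, Npr3 and Sfrp5, were under 1 FPKM in NCD-veh and passed the minimum only through HFD-veh. The minimum itself thus favoured a higher call, so the count says little about the members. Mest had 0.442, 1.71 and 0.522 FPKM, so that HFD-veh stood apart from both other libraries. Npr3 had 0.378, 1.52 and 0.800 FPKM and Sfrp5 0.672, 1.88 and 1.78 FPKM. Cav1 had 27.6, 41.8 and 32.5 FPKM and stayed within 2-fold. The log2 differences on HFD were 1.74 for Mest, 1.76 for Npr3, 1.36 for Sfrp5 and 0.59 for Cav1. With narciclasine 1 of 4 was over 2-fold below HFD-veh, Mest at -1.54, against 2.53% of 9694 genes. HFD-ncls differed from NCD-veh by over 2-fold in 1 of 2 genes measured, Sfrp5 at 1.29, against 0.893% of 9516 genes. Here too the gene called passed the minimum only through the higher library, HFD-veh for Mest and HFD-ncls for Sfrp5. With a pseudocount of 1, none of these 5 differences passed 2-fold. Those on HFD were then 0.91 for Mest, 0.87 for Npr3 and 0.78 for Sfrp5, that of Mest with narciclasine was -0.83, and that of Sfrp5 between HFD-ncls and NCD-veh was 0.74.

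White adipocyte markers differed between the same muscle libraries. Of 16 adipocyte genes 15 were measured, with a median of 0.70 on HFD. Lep (0.133 to 5.04 FPKM), Cidec (5.89 to 15.2 FPKM), Plin1 (2.02 to 4.97 FPKM) and Retn (9.24 to 19.3 FPKM) were higher and Cfd (76.7 to 33.4 FPKM) was lower. The excess over NCD-veh muscle was 0.241% of the HFD-veh WAT level for Mest, 0.440% for Npr3 and 0.525% for Sfrp5. It was 0.409% for Lep, 0.433% for Cidec, 0.554% for Plin1 and 1.04% for Retn, the 4 adipocyte genes over 2-fold higher. Of all 16 adipocyte genes, 10 were above NCD-veh muscle, by 0.242% to 1.04%, and 6 were below it, among them Cfd at -6.63%, Pnpla2 at -5.51% and the glucose transporter Slc2a4, more abundant in muscle than in WAT, at -74.4%. In HFD-ncls muscle it was 0.0178% of the HFD-ncls WAT level for Mest, 0.188% for Npr3 and 0.536% for Sfrp5. There it was 0.138% for Lep, 0.205% for Cidec, 0.272% for Plin1 and -0.14% for Retn, and the 10 adipocyte genes above NCD-veh muscle lay between 0.138% and 1.37%. The HFD-veh muscle library also held the liver list at 513 FPKM, while Mest, Sfrp5 and Npr3 in HFD-veh liver had 0.419, 0 and 0.158 FPKM, below their values in that muscle library. Relative to the adipocyte median, an alternative added after the data were seen, the difference of Sfrp5 was 0.66 on HFD and 0.99 between HFD-ncls and NCD-veh, both within 2-fold. The part of adipocytes in these muscle values was not tested.

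**Figure D4:**
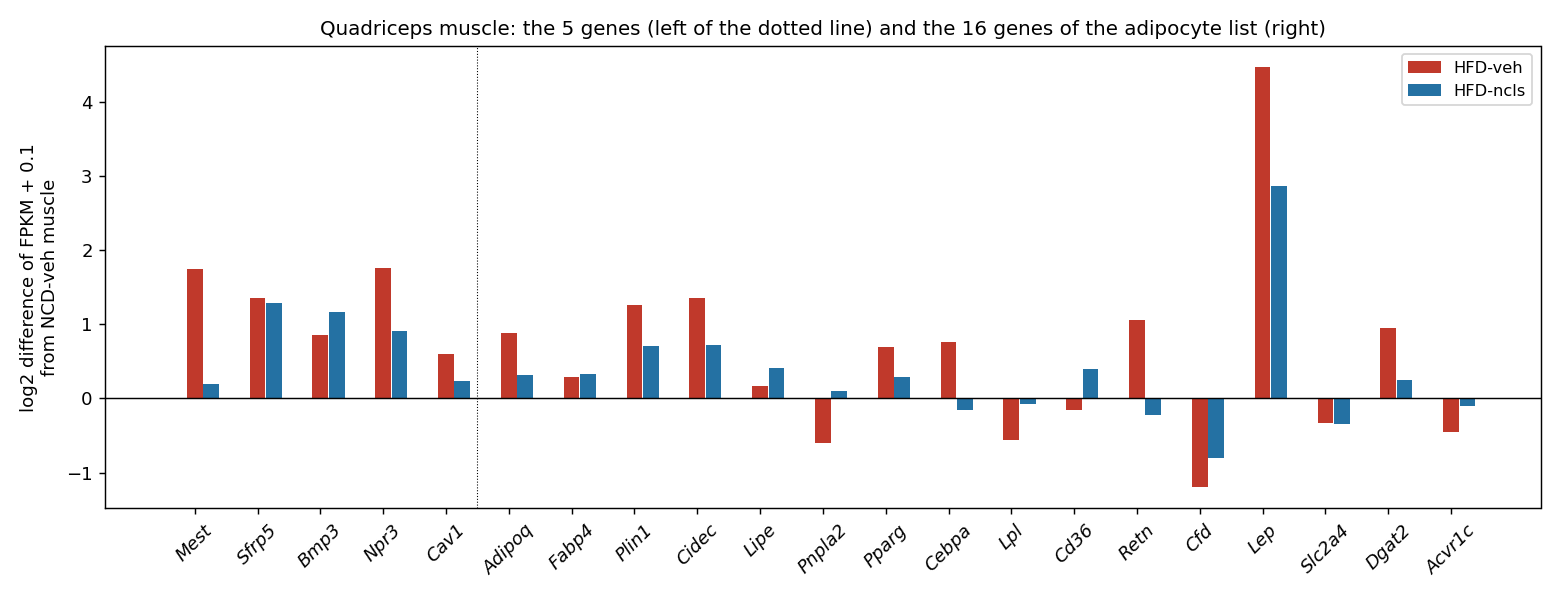
Log2 difference of FPKM + 0.1 from NCD-veh in quadriceps muscle for HFD-veh (red bars) and HFD-ncls (blue bars), for the 5 genes on the left of the dotted line and the 16 adipocyte genes on the right. Bmp3 stayed under 1 FPKM in all 3 libraries. Mest shows a tall red bar and a short blue bar, and Sfrp5 bars of nearly the same height.

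Liver held little of any of the 5 genes. Cav1 had 1.16, 1.88 and 1.65 FPKM, and its log2 differences were 0.65 on HFD and -0.18 with narciclasine. In the same libraries 9 of 9 skeletal muscle genes measured were over 2-fold higher on HFD and 9 of 9 lower with narciclasine, and their list summed to 2.18, 68.2 and 3.14 FPKM. Cav1 in muscle was at 27.6 to 41.8 FPKM, and the part of muscle RNA in its liver values was not tested. Mest (0.115, 0.419 and 0.735 FPKM) and Npr3 (0.0523, 0.158 and 0.116 FPKM) stayed under 1 FPKM. Sfrp5 was listed at 0 in HFD-veh liver and Bmp3 at 0 in HFD-ncls liver. Bmp3 in muscle had 0.0759, 0.217 and 0.294 FPKM, about 5.84 to 23.2 fragments per library.

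The genes whose pattern was most like each member were found by Pearson's r of log2(FPKM + 0.1). Over the 12 libraries these were Oxtr (r = 0.994), Bcl2l10 and Nlk for Mest, S100a16 (0.995), Pcolce2 and Adamts5 for Sfrp5, and Sdk1 (0.998), L3mbtl3 and Cmklr1 for Bmp3. For Npr3 they were Phgdh (0.996), Aida and Cdsn, and for Cav1 they were Ptrf (0.996), Pcdh19 and Ehd2. The 12 points share organs and libraries, and all genes rich in WAT correlate across them, so r is a description. Oxtr, the oxytocin receptor, had 11.1, 44.6 and 49.9 FPKM in WAT and at most 0.201 FPKM elsewhere. The caveola genes Ptrf and Ehd2 were both among the leading 3 of 13648 genes for Cav1. Over the 6 fat libraries the leading genes were Tet3, Ret and Oxtr for Mest, Hspa5, Prkcsh and Eef1g for Sfrp5, Lyst, Dock10 and Slc8a1 for Bmp3, Dennd5a, Akr1c13 and Spry2 for Npr3, and Myo1c, Tmem168 and Adcy6 for Cav1. Oxtr alone was among the leading 3 for the same gene in both sets.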

How the data were processed

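RNA-seq libraries of 4 organs and 3 groups were analysed, 1 library each, grouped by the sample titles. Reads had been aligned to the mm9 genome with TopHat and RefSeq genes quantified with Cufflinks by the authors, who deposited 1 FPKM value per gene symbol and library. Strandedness and scaling between libraries were not given in the sources used here. Values were missing in at least 1 library for 86 symbols, which were left out where they lacked a value.

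Log2 differences used a pseudocount of 0.1, genes with at least 1 FPKM in at least 1 library compared, and a threshold of 2-fold. A pseudocount understates the change of low genes. No test was run, since there are no replicates. The members and the 19 gene lists were chosen with earlier results of these data known. Of a list, genes past 2-fold with the largest differences were named, at most 4 per direction (values of some genes counted are not reported here), and for each member the 3 genes with the highest r. Fragment counts are approximate and cover counting only. Gene positions are from GENCODE on mm9 and promoter sequences from RefSeq on GRCm38.p6, which had entries for 4 of the 5 genes. Python 3.11.15 with numpy 2.4.6, pandas 2.3.3 and matplotlib 3.10.9 was used, and the calculation was tested on simulated data.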

Additional observations from a re-analysis of the deposited data

Results flagged for a closer look

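Members that lay on opposite sides of 0 in white and brown fat in the same diet comparison are given here. The log2 difference of HFD-veh from NCD-veh for Sfrp5 was 1.51 in WAT and -0.49 in BAT, so WAT was above BAT by 2.0001. For Cav1 it was -0.09 in WAT and 0.32 in BAT, and WAT minus BAT was -0.41. With 1 library per organ and group the difference between the organs was not tested. Sfrp5 in BAT lay between 0.735 and 1.34 FPKM, or about 34.6 to 65.3 fragments, and the Cav1 values lie within 2-fold in both organs. Relative to the adipocyte list the Cav1 difference in WAT was 0.17, on the same side of 0 as in BAT.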

How the results depend on the processing

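Each value rests on 1 library per organ and group, so no library can be left out and no error given. No paired analysis was possible because each group has 1 library and no test was run. The 2-fold calls of Mest and Sfrp5 in WAT and of Npr3 in BAT kept their side and direction under all 30 combinations of value and alternative tried. Among these, the threshold of 1.4-fold and the minimum of 5 FPKM left each value as it was, so they could not undo a call. The WAT values cover both HFD libraries against the same NCD-veh library, so they are not independent. Relative to the adipocyte list, Cav1 turned to 0.17 for HFD-veh minus NCD-veh and Bmp3 to 0.0761 for HFD-ncls minus HFD-veh in WAT, and in muscle Cav1 to -0.10 on HFD and, with narciclasine, Sfrp5 to 0.33 and Cav1 to 0.0424, and Cav1 for HFD-ncls minus NCD-veh to -0.0623. Cav1 in BAT, HFD-ncls minus NCD-veh, turned from -0.01 to 0.0434 after rescaling and 0.11 relative to the list. At 1.4-fold, Sfrp5 on HFD (-0.49) and Npr3 with narciclasine (-0.91) passed in BAT. The cause of these turns was not tested.

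Counts of all genes past 2-fold, with fewer or more genes tested, changed as follows. In WAT, HFD-veh minus NCD-veh gave 1112 genes, and 620 with a pseudocount of 1, 1933 with no filter, 547 at 5 FPKM and 3572 at 1.4-fold. HFD-ncls minus HFD-veh gave 207, and 91, 696, 68 and 933 in that order, and 129 without liver-enriched genes. HFD-ncls minus NCD-veh gave 1185, and 696, 2070, 620 and 3741. In BAT the counts were 448, and 218, 916, 207 and 1835, with 743 relative to the adipocyte list, then 203, and 114, 615, 80 and 881, with 120 without muscle-enriched genes, then 425, and 257, 905, 191 and 1574. Listed genes past 2-fold in WAT on HFD were 57, and 106 at 1.4-fold. The 5 member calls over 3 comparisons in muscle and liver became 0 with a pseudocount of 1 and 3 relative to the adipocyte list. By Spearman's rho 0 of the 15 leading genes were shared over 12 libraries and 0 of 15 over 6, where many genes tie at 1.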

Other observations

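Genes near the members on the chromosome were looked at after the values of the members were known, within 250 kb on either side in mm9. Around Mest, 5 of 10 listed genes had at least 1 FPKM in WAT and 3 were over 2-fold higher in HFD-veh than in NCD-veh, among them Copg2 (18.4, 37.8 and 32.1 FPKM) and Klf14 (2.41, 5.52 and 6.17 FPKM). Of all genes measured in this comparison 5.24% were higher and 3.87% lower. Copg2 overlaps Mest on the opposite strand, and whether the reads kept their strand was not given in the sources used here.

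Around Sfrp5, 10 of 12 genes were measured, 3 were higher and 1 was lower on HFD. Those higher were Crtac1 (2.21, 10.1 and 10.2 FPKM), Golga7b (1.27, 5.57 and 4.50 FPKM) and Ubtd1 (9.60, 20.3 and 18.1 FPKM), and Morn4 was lower (1.87, 0.615 and 1.01 FPKM). Beside Cav1, 17.2 kb away, Cav2 had 199, 178 and 158 FPKM in WAT. Around Cav1 3 of 3 listed genes were measured and around Npr3 2 of 2, and 0 passed 2-fold on HFD. Around Bmp3 0 of 2 were measured. Whether neighbouring genes differ together was not tested.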
